A study of Mus musculus with 6 samples.

Results

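The genes described here are 43 regulators of pre-mRNA splicing: the SR proteins, the heterogeneous nuclear ribonucleoproteins (hnRNPs) and the Ptbp, Mbnl, Celf and Rbfox factors that act in muscle, with Rbm39. They were chosen by name, and a gene was measured where a probe set of the array's annotation named it alone. That held for 41 of the 43, through 153 probe sets, out of 18194 genes so named on the array. Hnrnpa3 had only probe sets shared with another gene, and Srsf7 is not analysed here. The 41 genes lie on 18 chromosomes.

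The cells were myoblasts, the dividing precursors of skeletal muscle, from the hindlimb of male C57BL/6JRj mice 9 to 15 weeks old. They grew for 72 hours on fibronectin (3 samples) or on collagen I (3 samples), and all 6 had the same growth medium (Ham's F-10, serum at 20%, basic fibroblast growth factor at 2.5 ng/ml). Total RNA was read on an Affymetrix mouse array. The comparison asked how the 2 coatings changed expression. Neither separate animals or cultures nor the way the myoblasts were isolated is given in the labels, so the p-values cover the spread among these 6 samples and that spread may be technical.

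Splicing regulators bind exons or nearby introns and decide whether the spliceosome uses a splice site. SR proteins carry a domain rich in arginine and serine and mostly favour exon inclusion, whereas many hnRNPs, Ptbp1 among them, mostly repress it. In developing muscle, Mbnl, Celf and Rbfox factors switch transcripts of contractile and calcium-handling genes between fetal and adult forms, and loss of Mbnl function underlies myotonic dystrophy. The array reads the amount of each regulator's transcript, mostly near its 3′ end, and does not read exon inclusion in any target.

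On fibronectin the splicing regulators were higher or did not pass the test. With limma and Benjamini-Hochberg adjustment over 10941 genes, 19 of the 41 rose at an adjusted p under 0.05, against 19.9% of all genes tested, and 0 fell, against 20.2%. At an unadjusted p under 0.05 the counts were 26 higher, against 25% of all genes, and 0 lower, against 24.3%. The median log2 change (fibronectin minus collagen) of the 41 was 0.16, from -0.06 to 1.00, where all genes tested had a median of 0.00. All 41 members passed the brightness filter, a mean log2 signal over the 6 samples of 2.33, but Mbnl3 did so through its fibronectin samples alone. Of the 40 members with both coatings' means above the filter, 18 rose and 0 fell, and 2 of these (Mbnl2 and Hnrnpr) had a log2 change of 0.3 or more. No share of all genes was computed under that limit, so the counts among the 40 are not read further.

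The order of the samples was also counted, with called genes included. In 32 of the 41, all 3 fibronectin samples lay above all 3 collagen samples, which was so for 27.4% of all genes tested. The 32 take in the called members, so this count is not separate from the calls. The reverse order was found in 1 member, Srsf5, against 25.9% of all genes. A positive log2 change was found in 37 of the 41 members, and in 5552 of the 10941 genes tested. Of the 22 members that did not pass, 18 had a positive log2 change, and 7 of them a 95% interval above 0. No matching share was computed for uncalled genes alone, so these 2 counts are not read further. Among genes with a mean at or above the 75th percentile of probe sets, 27.6% were higher, and 22 of 40 members were. With samples centred on their medians, which moved the median change of all genes to 0.06, 28 members were higher, against 27.2% of all genes, and 0 lower, against 15% of all genes. The higher share of all calls was then 64.4%, in place of 49.6%.

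**Figure D1:**
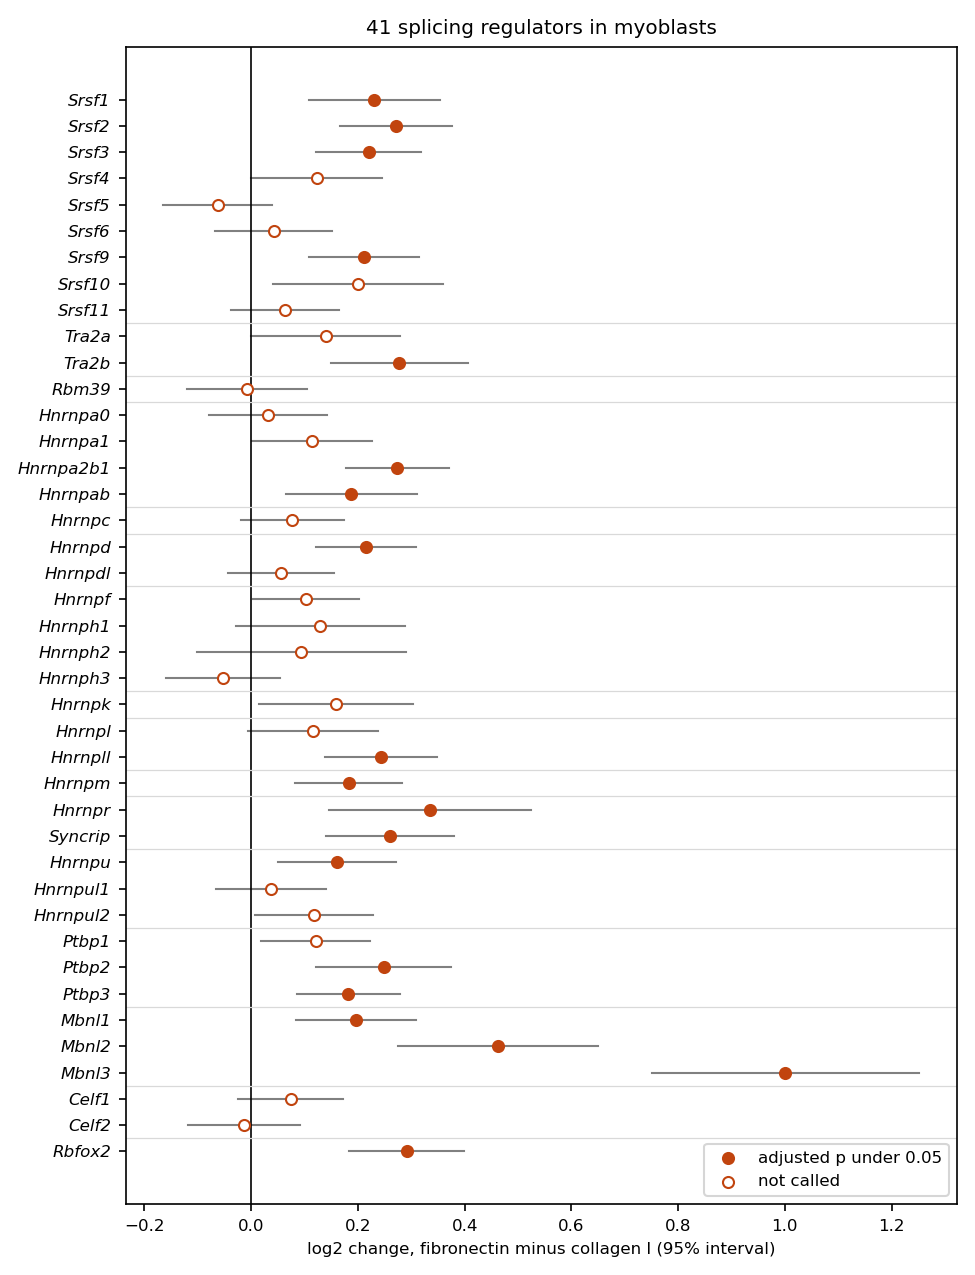
Log2 change (fibronectin minus collagen I, horizontal axis) of the 41 measured splicing regulators with 95% intervals, 3 samples per coating, grouped by family from SR proteins at the top to Rbfox2 at the bottom. Filled points are the 19 that passed an adjusted p of 0.05. All filled points lie right of 0, and Mbnl3, the point farthest out, has collagen values below the brightness filter.

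Among the 11 measured SR and Tra2 genes, 5 passed as higher, against 19.9% of all genes tested, and 0 as lower, against 20.2%. Their median change was 0.20 on the log2 scale. Srsf2, an SR protein that binds exonic enhancers, had log2 signals of 9.37, 9.27 and 9.33 on fibronectin, against 9.02, 9.07 and 9.07 on collagen. The coatings did not overlap, and the rise was 1.21-fold (log2 SE 0.05, adjusted p = 0.00266). Tra2b, an SR-like activator of exons, had 8.98, 8.89 and 8.97 on fibronectin and 8.61, 8.76 and 8.64 on collagen, again without overlap. It rose 1.21-fold (log2 SE 0.06, adjusted p = 0.00595). Both are read by probe sets with a name suffix (_s_at or _a_at) that marks binding to several transcripts. By their brightest probe set without one neither passed: Srsf2 had a log2 change of 0.26 (adjusted p = 0.0507) and Tra2b 0.10 (adjusted p = 0.586). Those probe sets were dimmer, with means of 4.08 on fibronectin and 3.81 on collagen for Srsf2, and 2.83 and 2.73 for Tra2b. In the fit over probe sets their other suffixed probe sets were called, at 0.17 and 0.27 for Srsf2 and 0.23 for Tra2b. A further unsuffixed Tra2b probe set had -0.01 and did not pass. Srsf1, the founding SR protein, rose 1.17-fold, Srsf3, the smallest of the family and also an adaptor for mRNA export, rose 1.16-fold, and Srsf9 rose 1.16-fold, with adjusted p of 0.0108, 0.0051 and 0.00725.

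The other SR genes did not pass. Srsf10, a regulator that represses splicing when dephosphorylated, had 7.14, 6.96 and 7.23 on fibronectin against 6.90, 6.90 and 6.92 on collagen, at an adjusted p of 0.0504. It passed in 6 of the 15 alternatives, at adjusted p from 0.00996 without fibronectin replicate 2 to 0.0482, and did not pass in the other 9. Srsf4 had a log2 change of 0.12 (adjusted p = 0.103) and passed without collagen replicate 1 (0.17, adjusted p = 0.0229). Tra2a had 0.14, Srsf11 0.06 and Srsf5 -0.06. With probe sets averaged the sign turned for Tra2a (-0.0552) and Srsf11 (-0.0015). Both averages take in probe sets below the brightness filter. The other tested Tra2a probe sets had -0.07, -0.04 and 0.14, and none was called.

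Srsf6 had one of the smallest changes when read by its brightest probe set, with 9.83, 9.72 and 9.80 on fibronectin against 9.72, 9.72 and 9.78 on collagen. These overlapped, with a log2 change of 0.04 (95% interval -0.07 to 0.15). Its other 3 probe sets rose by 0.27, 0.32 and 0.32 on the log2 scale in the fit over probe sets, with adjusted p between 0.00323 and 0.0108. The test that the 4 probe sets changed unequally gave an adjusted p of 0.0753, so a difference among them was not established. Averaging the probe sets of each gene gave Srsf6 a rise of 0.24 (adjusted p = 0.00286).

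Among the 20 measured hnRNP genes, 8 passed as higher, against 19.9% of all genes tested, and 0 as lower, against 20.2%. Their median change was 0.12 on the log2 scale. The 2 members of the R and Q pair, closely related proteins that bind RNA in the nucleus and cytoplasm, both rose. Hnrnpr had 8.75, 8.70 and 8.85 on fibronectin and 8.40, 8.60 and 8.30 on collagen, with an SD of 0.08 on fibronectin and 0.15 on collagen. The rise was 1.26-fold (log2 SE 0.08, adjusted p = 0.0136), and with all its probe sets averaged it did not pass (log2 change 0.16, adjusted p = 0.062). That average takes in probe sets below the brightness filter. Its tested probe sets had log2 changes of 0.34, 0.35 and 0.20, each called in the fit over probe sets. Syncrip, which encodes hnRNP Q, had 7.79, 7.77 and 7.80 on fibronectin against 7.54, 7.59 and 7.44 on collagen and rose 1.20-fold (adjusted p = 0.00587).

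Hnrnpa2b1 encodes a core hnRNP whose A2 and B1 forms differ by splicing. Its signals were 10.43, 10.42 and 10.48 on fibronectin against 10.17, 10.16 and 10.18 on collagen, a 1.21-fold rise (log2 SE 0.04, adjusted p = 0.0017) in which the gap was several times the spread within either coating. Hnrnpll, known in lymphocytes for switching the splicing of Cd45, had 8.87, 8.86 and 8.85 on fibronectin against 8.67, 8.60 and 8.57 on collagen and rose 1.18-fold (adjusted p = 0.00422). By their brightest probe set without a suffix Hnrnpa2b1 had a log2 change of 0.03 (adjusted p = 0.675) and Hnrnpll 0.15 (0.0536), and neither passed. Hnrnpd, also called Auf1, which speeds the decay of AU-rich mRNAs, rose 1.16-fold, and Hnrnpm rose 1.13-fold, with adjusted p of 0.0044 and 0.0121.

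Hnrnpab and Hnrnpu, which encodes a nuclear scaffold protein, rose 1.14-fold and 1.12-fold, with adjusted p of 0.0246 and 0.03, and both calls depended on the samples and settings used. Hnrnpab did not pass without fibronectin replicate 1 (adjusted p = 0.0768), fibronectin replicate 3 (0.0688) or collagen replicate 2 (0.0573). Hnrnpu did not pass without fibronectin replicate 1 (0.0968), fibronectin replicate 2 (0.0798), collagen replicate 1 (0.058) or collagen replicate 2 (0.0958). Neither passed with no brightness filter (Hnrnpab 0.0724, Hnrnpu 0.0878), and Hnrnpab did not pass with the arrays quantile normalised again (0.0748).

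The hnRNP F and H genes, which encode binders of G-rich elements, were 0 of 4 called, against 19.9% higher and 20.2% lower of all genes. With so few genes this count is not read further. Log2 changes were 0.10 for Hnrnpf, 0.13 for Hnrnph1, 0.09 for Hnrnph2 and -0.05 for Hnrnph3, whose sign turned with samples centred. By unadjusted p under 0.05, 1 was higher, against 25% of all genes. Hnrnpa0 had 9.53, 9.56 and 9.55 on fibronectin against 9.48, 9.48 and 9.59 on collagen, which overlap (log2 change 0.03, 95% interval -0.08 to 0.14). Hnrnpul1 had 6.91, 6.87 and 6.96 on fibronectin and 6.86, 6.87 and 6.89 on collagen, also overlapping (0.04, 95% interval -0.07 to 0.14). Hnrnpk had 0.16, Hnrnpl and Hnrnpul2 0.12 each, Hnrnpa1 0.11, Hnrnpc 0.08 and Hnrnpdl 0.06, and none passed. In the fit over probe sets Hnrnpdl probe sets at 0.17, 0.16 and 0.35 were called, and its others did not pass. With probe sets averaged Hnrnpdl passed (0.19, adjusted p = 0.0113). Without collagen replicate 1, Hnrnpl passed at 0.16 (adjusted p = 0.0231) and Hnrnpul2 at 0.15 (0.0428). Hnrnpa1 has many near-identical copies in the genome, and the probe set used here may bind several of them, so its value may mix loci.

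Of the muscleblind genes, Mbnl2 and Mbnl1 rose with both coatings' means above the brightness filter, and Mbnl3 passed the test with its collagen mean below it. Mbnl proteins bind YGCY elements and promote adult-type splicing, and Mbnl3, the family member of proliferating muscle precursors, restrains differentiation in mouse myoblasts. Mbnl3 had log2 signals of 3.08, 2.95 and 2.84 on fibronectin, against 1.89, 1.78 and 2.19 on collagen. Every fibronectin sample lay above every collagen sample, and the 3 collagen samples lay below the brightness filter. The measured change was 2.00-fold (log2 change 1.00, SE 0.11, adjusted p = 0.000361). It was taken against collagen values near the floor of the array, and the gene was admitted to the test by its fibronectin values, so neither its size nor its rank among the members is read here. It lay between 0.91 and 1.12 over the alternatives that could test it, including the fit with no brightness filter (adjusted p = 0.00189). Its second probe set had means of 2.00 on fibronectin and 1.62 on collagen and the third 0.74 and 0.80, all under the filter.

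Mbnl2 had 7.13, 7.03 and 7.06 on fibronectin against 6.76, 6.64 and 6.44 on collagen, with no overlap and an SD of 0.05 on fibronectin and 0.16 on collagen. It rose 1.38-fold (log2 SE 0.08, adjusted p = 0.00318). Mbnl1, the form that predominates in adult muscle, had 8.62, 8.58 and 8.59 on fibronectin against 8.47, 8.39 and 8.34 on collagen and rose by 0.20 on the log2 scale (SE 0.05, adjusted p = 0.0147). Without fibronectin replicate 1 Mbnl1 lay just over the threshold and did not pass (log2 change 0.19, adjusted p = 0.0500035).

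The bases just before the transcription start are shown for the 3 muscleblind genes and for Tra2b and Srsf2. Tra2b and Srsf2 were picked by their values here, as the SR-family genes with the largest called rises. Whether these genes share any control was not tested. Shown are the 250 bases upstream of the RefSeq starts (build GRCm38.p6), 5′ to 3′ on the gene's strand. Capitals mark matches to the motifs named after them. RefSeq gives 2 starts for Mbnl1.
Mbnl3, chrX:51205991-51206240, minus strand: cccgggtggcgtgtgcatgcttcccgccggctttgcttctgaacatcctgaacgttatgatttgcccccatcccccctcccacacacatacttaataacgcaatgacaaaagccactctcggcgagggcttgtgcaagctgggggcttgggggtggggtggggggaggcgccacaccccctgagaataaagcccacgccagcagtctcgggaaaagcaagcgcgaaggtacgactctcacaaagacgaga
Mbnl2, chr14:120275419-120275668, plus strand: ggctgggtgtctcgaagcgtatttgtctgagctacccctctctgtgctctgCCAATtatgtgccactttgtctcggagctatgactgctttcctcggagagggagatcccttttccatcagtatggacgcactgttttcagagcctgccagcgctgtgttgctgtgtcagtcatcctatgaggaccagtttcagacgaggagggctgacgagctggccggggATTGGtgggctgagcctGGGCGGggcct
Mbnl1, first start, chr3:60472580-60472829, plus strand: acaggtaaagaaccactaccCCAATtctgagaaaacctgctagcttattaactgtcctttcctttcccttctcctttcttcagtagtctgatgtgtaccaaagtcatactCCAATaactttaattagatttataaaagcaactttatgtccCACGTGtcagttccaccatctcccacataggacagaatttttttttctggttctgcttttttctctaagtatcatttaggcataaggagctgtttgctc
Mbnl1, second start, chr3:60500929-60501178, plus strand: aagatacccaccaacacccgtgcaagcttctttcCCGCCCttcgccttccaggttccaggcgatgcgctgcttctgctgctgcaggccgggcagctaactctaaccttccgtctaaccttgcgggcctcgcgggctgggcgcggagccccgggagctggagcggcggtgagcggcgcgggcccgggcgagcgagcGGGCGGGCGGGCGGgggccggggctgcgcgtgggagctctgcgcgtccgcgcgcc
Tra2b, chr16:22266006-22266255, minus strand: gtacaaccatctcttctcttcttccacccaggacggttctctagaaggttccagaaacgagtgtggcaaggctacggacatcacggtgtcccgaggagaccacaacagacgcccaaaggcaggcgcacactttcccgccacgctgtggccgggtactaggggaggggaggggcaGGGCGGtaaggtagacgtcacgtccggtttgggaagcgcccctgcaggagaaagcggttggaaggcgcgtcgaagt
Srsf2, chr11:116853095-116853344, minus strand: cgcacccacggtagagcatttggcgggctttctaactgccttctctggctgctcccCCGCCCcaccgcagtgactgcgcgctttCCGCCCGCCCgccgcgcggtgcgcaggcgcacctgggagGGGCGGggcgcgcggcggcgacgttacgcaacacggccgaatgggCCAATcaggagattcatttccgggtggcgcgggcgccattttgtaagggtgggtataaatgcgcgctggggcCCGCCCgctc

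The motifs were searched on both strands of these upstream windows: the GC box GGGCGG, the CCAAT box, the E-box CACGTG bound by Myc and Max, the E-box CAGCTG bound by myogenic factors, the Tead motif GGAATG, and the E2f motifs TTTCGCGC and TTTGGCGC. Promoter windows were found for 37 of the 41 members, 55 in all. A GC box was in 70.9% of the members' windows and in 32.7% of all 32851 windows in the table, and a CCAAT box in 43.6% and 33.8%. The members' windows were richer in G and C, with a median of 63.6% against 52.4%. CACGTG was in 7.27% of the members' windows and 6.02% of all, CAGCTG in 9.09% and 13.0%, and the Tead motif in 3.64% and 12.6%. The E2f motifs were in 0 of 55 windows, and in 0.256% and 0.417% of all. The Mbnl3 window holds none of these letters, the first Mbnl1 window holds 1 CACGTG and 2 CCAAT boxes, and the Srsf2 window holds 5 GC boxes and 1 CCAAT box. These are matches of letters and say nothing of binding.

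**Figure D2:**
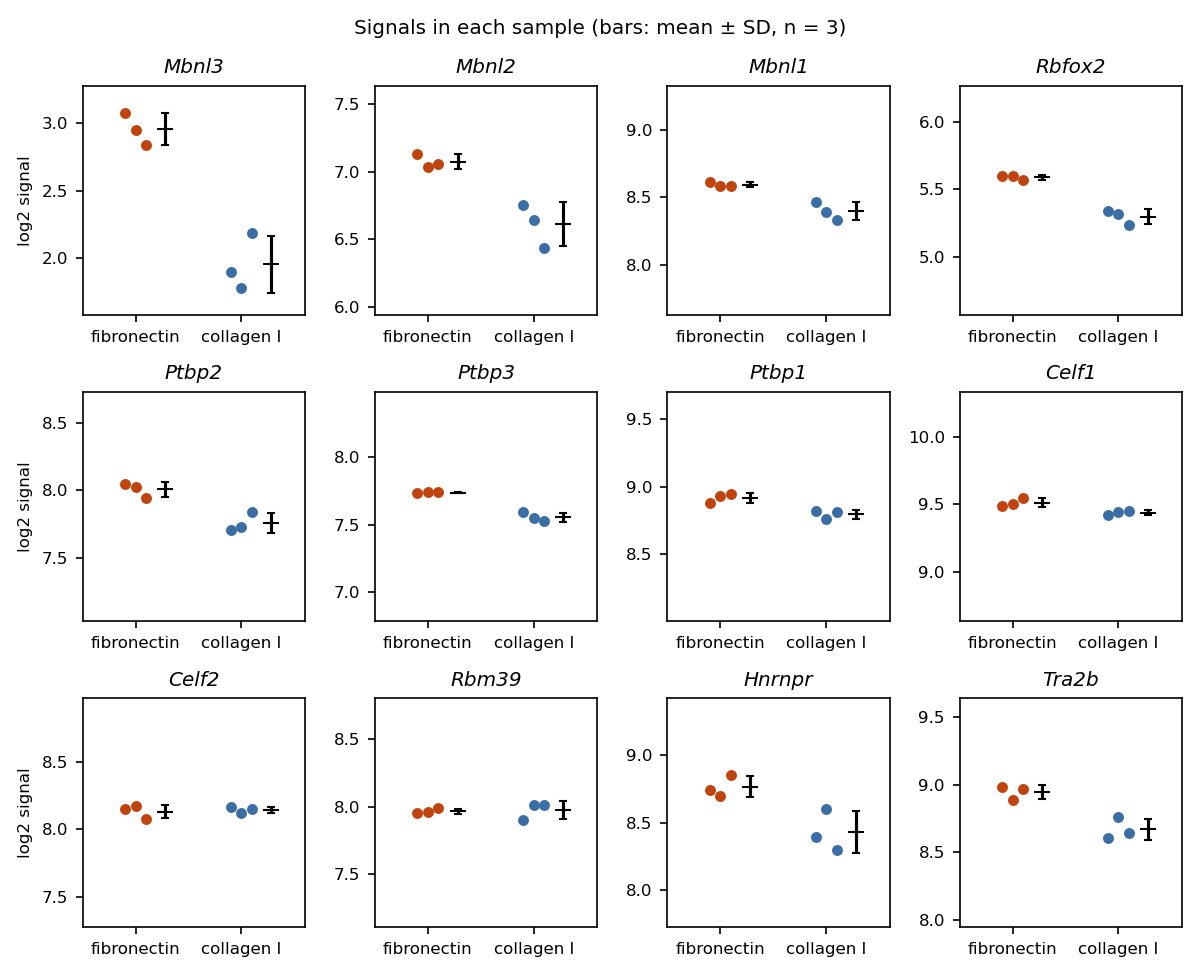
Log2 signal (vertical axis, the same span of 1.7 units in every panel) of 12 splicing regulators in each sample, with 3 fibronectin samples at the left and 3 collagen samples at the right of each panel. Bars give the mean and SD of each coating. The coatings are apart in every panel other than those of Celf2 and Rbm39, and the collagen values of Mbnl3 lie below the brightness filter of 2.33.

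The Ptbp genes encode polypyrimidine tract binding proteins, repressors of exons. Ptbp2, a paralog best known from neurons, had 8.05, 8.03 and 7.95 on fibronectin against 7.71, 7.73 and 7.84 on collagen and rose 1.19-fold (log2 SE 0.05, adjusted p = 0.00885). Ptbp3 had 7.73, 7.74 and 7.74 on fibronectin against 7.59, 7.55 and 7.53 on collagen and rose 1.13-fold (log2 SE 0.04, adjusted p = 0.0108). Ptbp1, which keeps muscle and neuronal exons silent in many cells, had 8.88, 8.93 and 8.94 on fibronectin against 8.82, 8.76 and 8.81 on collagen. Its samples did not overlap, but the change of 0.12 did not pass (95% interval 0.02 to 0.22, adjusted p = 0.0606). A second, dimmer Ptbp1 probe set had a log2 change of -0.17 and did not pass either (adjusted p = 0.117). Its samples did not overlap in the other direction, with every fibronectin sample below every collagen sample.

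Rbfox2, which binds UGCAUG beside alternative exons and is needed for splicing changes during myoblast fusion in mouse cells, had 5.60, 5.60 and 5.57 on fibronectin against 5.34, 5.31 and 5.23 on collagen. It rose 1.22-fold (log2 SE 0.05, adjusted p = 0.00203), and 3 of its 4 probe sets were called, at log2 changes of 0.29, 0.32 and 0.36. Rbm39, an SR-related coactivator, had 7.95, 7.96 and 7.99 on fibronectin against 7.90, 8.01 and 8.01 on collagen, which overlap (log2 change -0.01, 95% interval -0.12 to 0.11). Of its 12 probe sets 11 did not pass, and 1 dim probe set rose by 0.40 on the log2 scale (adjusted p = 0.00913).

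The Celf genes encode binders of GU-rich elements that often act against Mbnl on the same exons. Neither passed. Celf1 had 9.49, 9.50 and 9.55 on fibronectin against 9.42, 9.45 and 9.45 on collagen, close but without overlap (log2 change 0.07, 95% interval -0.02 to 0.17, adjusted p = 0.202). Celf2 had 8.15, 8.17 and 8.08 on fibronectin against 8.16, 8.12 and 8.15 on collagen, which overlap (log2 change -0.01, 95% interval -0.12 to 0.09). In the fit over probe sets a dimmer Celf2 probe set rose by 0.31 on the log2 scale without overlap (adjusted p = 0.011). Another Celf2 probe set, at 0.15, did not pass (adjusted p = 0.151). The difference between the Mbnl and the Celf genes in their response was not tested.

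Most members were read by several probe sets, which bind different stretches of the transcript or different transcript forms. Of their 153 probe sets 130 were bright enough to test. In the fit over 19440 probe sets 60 of the 130, or 46.2%, were higher, against 17.7% of all probe sets, and 0 were lower, against 16.6%. At least 1 higher probe set was found for 26 of the 41 members, against 22.7% of all genes, and a gene with many probe sets has more chances of one. Of the 26, Srsf6, Srsf10, Rbm39, Hnrnpa1, Hnrnpdl, Celf1 and Celf2 were not called by their brightest probe set. The higher probe sets of Hnrnpa1 (means of 2.49 on fibronectin and 2.17 on collagen) and Mbnl3 passed the filter through fibronectin alone, which leaves 24 members without them. No matching share of all genes was computed for the 24. Probe sets of 1 gene share their samples and are not independent.

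Whether the probe sets of a gene changed unequally was tested with limma's diffSplice in 29 members, of which 2 passed an adjusted p of 0.05, against 5.53% of all 5097 genes so tested. One was Mbnl2 (adjusted p = 0.0149). Its probe sets rose by 0.46, 0.44 and 0.59 on the log2 scale, while the remaining tested one had means of 4.02 on fibronectin and 3.94 on collagen and a change of 0.08 that did not pass. The other was Celf1 (adjusted p = 0.0172). Its 5 tested probe sets had changes of 0.07, -0.13, 0.15, 0.14 and -0.18, and 1 of them, at 0.15, was called, at an adjusted p of 0.05 to 2 decimals. The one at -0.18 had means of 2.27 on fibronectin and 2.45 on collagen, so it passed the brightness filter through collagen alone. Both calls depended on single samples: Mbnl2 did not pass without fibronectin replicate 1, 2 or 3 or collagen replicate 2 (adjusted p from 0.0648 to 0.107), and Celf1 did not pass without fibronectin replicate 1, 2 or 3 or collagen replicate 1 or 3 (0.0644 to 0.107).

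**Figure D3:**
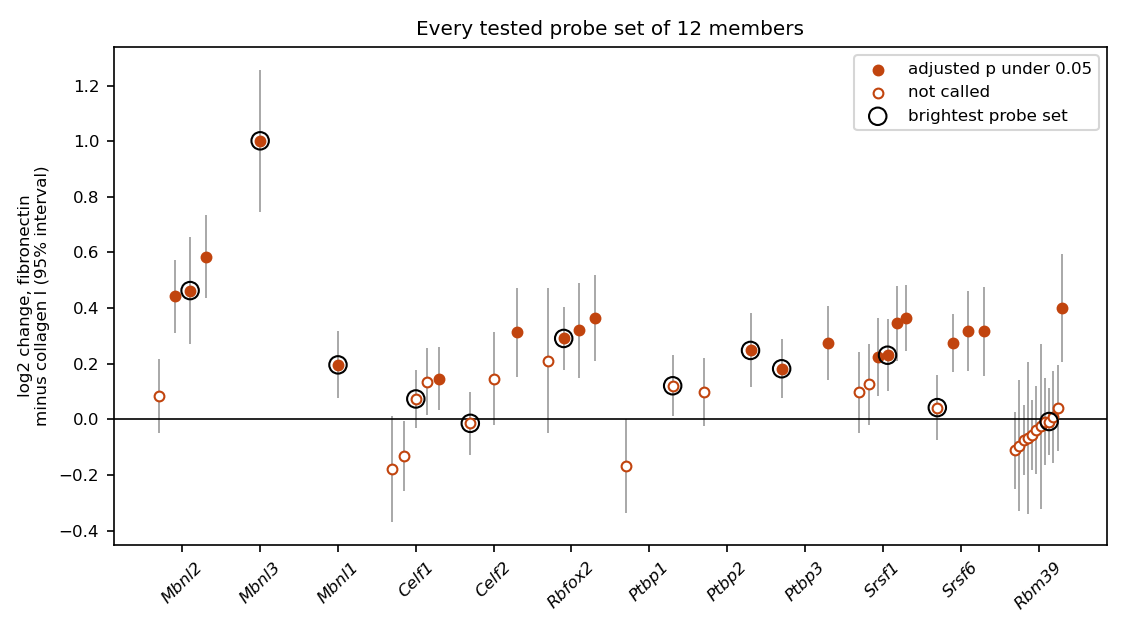
Log2 change (fibronectin minus collagen I, vertical axis) of every tested probe set of 12 splicing regulators, with 95% intervals from the fit over probe sets. Filled points passed an adjusted p of 0.05 and a black ring marks the brightest probe set of each gene. One Mbnl2 probe set lies near 0 apart from its other 3, and Celf1 has probe sets on both sides of 0. The lowest Celf1 point passed the brightness filter through its collagen samples alone.

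Other genes of splicing were read from lists written from general knowledge of the pathway. The SR protein kinases, which phosphorylate SR proteins and so control their location and activity, were 0 of 9 higher and 2 lower, with a median log2 change of -0.04. Srpk3, a kinase of striated muscle whose gene is a target of Mef2 in mice, had 3.82, 3.91 and 3.35 on fibronectin against 4.78, 4.98 and 4.78 on collagen. It fell 2.23-fold (log2 change -1.16, SE 0.14, adjusted p = 0.000587) with no overlap and a wider spread on fibronectin (SD 0.30) than on collagen (SD 0.11). Srpk2 had 6.81, 6.92 and 6.86 on fibronectin against 7.14, 7.26 and 7.26 on collagen and fell 1.28-fold (adjusted p = 0.00162). The third family member Srpk1 had a log2 change of 0.10, and Clk1, Clk2, Clk3 and Clk4 lay between -0.10 and -0.03, none of which passed.

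Among 38 tested splicing regulators outside the member list, 13 were higher and 4 lower, and the median change was 0.08. Rbfox1, the paralog of Rbfox2 found in muscle, heart and brain, had 5.41, 5.41 and 5.36 on fibronectin against 5.82, 6.05 and 6.05 on collagen and fell by 0.58 on the log2 scale (SE 0.07, adjusted p = 0.000511), the opposite direction to Rbfox2. Rbm38, an RNA-binding protein that acts in myogenic differentiation and under p53, had 5.22, 5.28 and 5.10 on fibronectin against 4.70, 4.70 and 4.70 on collagen and rose 1.42-fold (adjusted p = 0.000368). Rbm20, the regulator of titin splicing in heart, had 6.75, 6.71 and 6.71 on fibronectin against 6.37, 6.40 and 6.37 on collagen and rose 1.27-fold (adjusted p = 0.000573). The other genes that fell, named after their values were seen, were Srrm4, Cirbp and Rbm5, with log2 changes of -0.32, -0.24 and -0.22.

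Of 64 tested genes of the core spliceosome 26 rose and 1 fell, with a median of 0.10. Isy1 and Lsm2, a component of the catalytic complex and a protein of the U6 particle, rose by 0.43 and 0.40 on the log2 scale, and Snrnp40 of the U5 particle rose by 0.28. The one that fell, named after its value was seen, was Slu7, a factor of the second catalytic step (-0.19, adjusted p = 0.0224). In the SMN complex and its partners, which assemble small nuclear ribonucleoproteins, 5 of 13 rose and 0 fell, among them Gemin8 at 0.43, Gemin2 at 0.30 and Prmt5, a methyltransferase of Sm proteins, at 0.25.

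Among 18 factors of mRNA 3′ end processing 8 were higher and 0 lower, with Nudt21 at 0.27, Fip1l1 at 0.24 and Cpsf6 at 0.22. The call for Fip1l1 was lost when probe sets were averaged (0.13, adjusted p = 0.0658). The exon junction complex had 1 of 4 tested genes higher, Rbm8a at 0.14 (adjusted p = 0.0415), a call lost in 5 of the 6 fits that left out a sample: without fibronectin replicate 1, 2 or 3 or collagen replicate 2 or 3, at adjusted p from 0.0743 to 0.112. Nonsense-mediated decay, which degrades the unproductive transcripts that SR genes make from their own poison exons, had 0 of 7 genes called with limma, 1 of them higher at an unadjusted p under 0.05, and a median of 0.11. Shares of these lists are set against the same 19.9% higher and 20.2% lower of all genes.

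**Figure D4:**
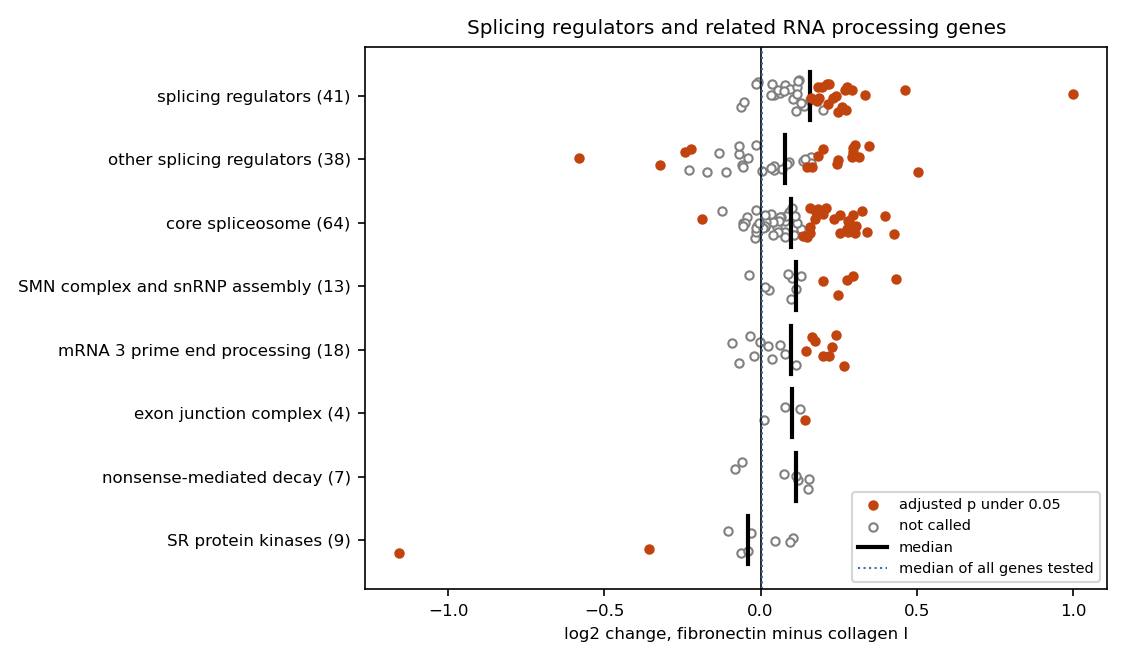
Log2 change (fibronectin minus collagen I, horizontal axis) of each tested gene among the splicing regulators (top) and 7 lists of related genes, with the number tested in brackets; vertical position within a row is arbitrary. Filled points passed an adjusted p of 0.05, black bars are medians and the dotted line is the median of all genes tested. Srpk3, Srpk2 and Rbfox1 are the 3 called points farthest to the left. The point at 1.00 is Mbnl3, whose collagen mean is below the brightness filter.

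Markers of the state of the cells also differed between the coatings. Of all genes tested, 19.9% were higher on fibronectin and 20.2% lower. The defining markers of myoblasts were measured on both coatings, with 7 of 7 above the filter. Vcam1 and Cdh15 rose, by 0.31 and 0.24 on the log2 scale, and Des fell by 0.23. The list had a mean log2 signal of 8.04 to 8.13 on fibronectin and 8.03 to 8.10 on collagen. Of 6 measured markers of cycling cells 5 rose and 0 fell, and their mean signal was 9.17 to 9.20 on fibronectin against 8.79 to 8.82 on collagen. Of 10 markers of differentiating muscle 7 fell, 0 rose and 3 (Ckm, Myh8 and Mymx) lay below the filter, with a mean signal of 3.38 to 3.67 on fibronectin against 4.42 to 4.49 on collagen. The part of these states in the levels of the splicing regulators was not tested, and in bulk RNA fewer cells of a type and less RNA per cell cannot be told apart.

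Markers of other cell types were mostly below the filter, among them all 5 of endothelial cells, all 3 measured of adipocytes, 5 of 7 of fibroblasts and 3 of 6 of macrophages and leukocytes, with Ptprc at means of 0.53 on fibronectin and 0.47 on collagen. Of those tested, Thy1, Col6a1, Cd68, Cd14 and Rgs5 were lower and Acta2 higher on fibronectin. The mean signal over the macrophage list was 2.01 to 2.15 on fibronectin and 2.29 to 2.42 on collagen, and over the fibroblast list 1.89 to 2.09 and 1.90 to 2.05. Over the list of pericytes and smooth muscle, of which 3 of 5 were tested, it was 4.64 to 4.76 on fibronectin and 4.90 to 5.01 on collagen. Their part in the results was not tested.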

How the data were processed

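The authors deposited log2 probe set signals for 6 samples, made with Affymetrix Expression Console and RMA per the submitters' processing notes. RMA normalises arrays by quantiles, which can hide a shift common to most genes, and it compresses changes of dim probe sets. Software versions were not given in the sources used here, and no batch could be tested. Sample medians were 2.30 to 2.34 on fibronectin and 2.35 to 2.39 on collagen. The number of arrays limits the precision.

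The platform annotation, with symbols updated through RefSeq (GRCm38.p6, 18032 of 18194 gene identifiers found), gave 1 gene to 34945 of 45101 probe sets, several to 932 and none to 9211. The brightest probe set stood for each gene, and genes with a mean of at least 2.33, the median over all probe sets, were tested. limma 3.58.1 in R 4.3.3 (lmFit and eBayes, two-sided, without covariates) compared fibronectin with collagen, and p-values were adjusted by Benjamini-Hochberg over 10941 genes. Further fits covered 19440 probe sets and, by diffSplice, 5097 genes. An exact permutation test of 3 samples against 3 cannot give a p below 0.1, so none was run. The fits were tested on simulated data. Figures used matplotlib 3.10.9 in Python 3.11.15.

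The members and lists were chosen with earlier results of these data known, so no p is given over a list. Values by sample are given for the Mbnl, Ptbp, Celf and Rbfox genes and Rbm39, for the 6 called SR, Tra2 and hnRNP genes with the largest rises and the 3 with the smallest changes. Srsf10 was added after its value was seen. From each related list up to 3 called genes with the smallest p are named, and of members every one whose probe sets changed unequally. The 15 alternatives varied the brightness filter (none, or the 75th percentile), the scaling (quantiles once more, or medians), the probe sets per gene (their mean, or without those named _x_at, _s_at or _a_at), the variance (trended and robust, or array weights), a block for replicate number, and each sample left out.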

Additional observations from a re-analysis of the deposited data

Results flagged for a closer look

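Probe sets that the annotation gives to a member together with other genes entered no comparison above. All 7 of them had every fibronectin sample above every collagen sample, which was so for 27.4% of all genes tested. That share counts genes by their brightest probe set, and no share was computed for probe sets. The 7 probe sets name Hnrnpa1 or Hnrnpa3 only and share their samples, so they are not independent. The 3 that name Hnrnpa1, encoding an abundant repressor of exons, with related loci had log2 differences of 0.35, 0.22 and 0.17 (fibronectin minus collagen) and passed in a limma fit of all named probe sets, with adjusted p of 0.0102, 0.00921 and 0.0282. The brightest probe set naming Hnrnpa1 alone had 0.11 and did not pass. The 4 that name Hnrnpa3 with another locus had differences of 0.10, 0.10, 0.14 and 0.17. Of these the last 2 passed, at adjusted p of 0.0473 and 0.0312, and the first 2 did not, at 0.169 and 0.154. Which locus the signal comes from was not tested.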

How the results depend on the processing

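Of the 19 members called higher, 11 were called in every alternative that tested them and 8 lost the call in at least 1 of the 15 alternatives; 0 of 41 were called lower in any. The count of higher members lay between 15 and 28, and between 16 and 21 when 1 sample was left out. With suffixed probe sets left out Srsf2, Tra2b, Hnrnpa2b1 and Hnrnpll did not pass, with log2 changes of 0.26, 0.10, 0.03 and 0.15. Of the 22 members not called, 13 passed in at least 1 alternative. The direction of some uncalled members turned, among them Tra2a and Ptbp1, whose reported changes of 0.14 and 0.12 had 95% intervals above 0: with samples centred Rbm39 (0.0464), Hnrnph3 (0.0015) and Celf2 (0.0399), with probe sets averaged Srsf11 (-0.0015), Tra2a (-0.0552) and Celf2 (0.0504), with suffixed probe sets left out Ptbp1 (-0.17), without collagen replicate 2 or 3 Rbm39 (from -0.0455 to 0.0122 over all samples left out), and without fibronectin replicate 3 Celf2 (from -0.0328 to 0.0133). The count of called genes in the 7 related lists was 60, and 36 without a brightness filter, 80 with samples centred and 39 to 56 when 1 sample was left out (39 without fibronectin replicate 1). Genes whose probe sets changed unequally numbered 282, and 98 with the 75th percentile filter and 103 to 207 when 1 sample was left out. Mbnl2 probe sets lost that call with no brightness filter (adjusted p = 0.0969) and with the 75th percentile filter (0.942), which drops 2 of the 4. Same-numbered samples did not deviate together (correlations of 0.1, -0.01 and 0.08), and with the replicate number as a block 19 members were again called higher, 18 of them the same genes (Hnrnpu was lost at an adjusted p of 0.0596 and Srsf10 gained at 0.0482), and Rbm8a was lost (0.0637). The causes were not tested.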
